A study of Mus musculus with 17 samples.

Results

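Transcripts of hippocampal neuropeptides were followed on mouse oligonucleotide arrays, with somatostatin (Sst) as the leading gene and Npy, Cck, Penk, Pdyn, Tac1, Vip and Cort beside it. The members were all probe sets annotated to a single symbol among these 8 genes. They came to 9 of 13069 probe sets, 4 of 6529 on the array type called chip A here and 5 of 6540 on chip B, and they covered 6 of the 8 genes, out of 6137 genes that had a probe set with 1 symbol. Npy and Vip had no probe set under this rule and were not analysed here.

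The samples came from male Rj:NMRI mice, an outbred stock, kept 10 to a cage on purified diets and killed in the morning of day 57 or 58. The diets held 1.1% of a fungal oil as a source of arachidonate, 1.9% of a fish oil as a source of docosahexaenoate, both oils at those levels, or neither oil in the control, in which medium chain triacylglycerol oil took their place. Per the labels, 10 mice received each diet, 5 of them were selected at random, and hippocampus and liver came from the same diet groups. The labels do not say whether RNA of the 5 mice was pooled. Hippocampus RNA of mice fed fungal oil, fish oil and the control diet was on both chips, and that of mice fed both oils was analysed on chip B. Liver served as the background tissue, with 1 RNA each for fungal oil, fish oil and both oils and 2 for the control diet, all on both chips, which makes 17 arrays. In the hippocampus each diet was 1 RNA, so an oil ratio there has no replicate check, and diet cannot be told apart from cage or from the sample itself.

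Neuropeptides are made as larger precursors, cut by convertases and trimming enzymes in dense core granules, and released to act on G protein-coupled receptors. In the hippocampus somatostatin, neuropeptide Y, cholecystokinin, vasoactive intestinal peptide and cortistatin mark classes of inhibitory interneurons, while dynorphin and enkephalins are also made by excitatory cells such as granule cells. Transcription of several of these genes, Sst among them, is known to follow cyclic AMP through the factor CREB.

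Every array was scaled to a trimmed mean of 150, and intensities below a floor of 15 were set to it before log2 was taken. Intensities below are scaled, in arbitrary units, and can be negative because background had been subtracted. Scaling factors ran up to 1.03. On chip B, negative values made up 29.6% to 32.4% of each hippocampus array and 31.7% to 34.5% of each liver array. The ratio of 3-prime to 5-prime Gapdh control signal, a sign of RNA length, ran from 0.840 to 0.947 on hippocampus arrays and from 1.89 to 3.26 on liver arrays. It thus moved with tissue, and its part in the tissue differences was not tested. Control probe values of the fish oil hippocampus array of chip B were not used here. The tissue labels were checked against marker genes. Of the excitatory neuron markers 6 of 7 tested were higher in hippocampus, as were 4 of 5 of the oligodendrocyte and 4 of 5 of the astrocyte markers, and 8 of 8 hepatocyte markers were lower in hippocampus.

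Somatostatin, a peptide that inhibits hormone release and dampens neuronal firing, was measured by a pair of chip B probe sets. Their suffix _f_at, shared by those of Cck and Penk, marks probes that can match related sequences, and probe sequences were not used here. The first, whose name starts with Msa, read 1615 with fungal oil, 1607 with fish oil, 1948 with both oils and 916 with the control diet in hippocampus. In liver it read 86.1 with fungal oil, 55.4 with fish oil, 112 with both oils, and 66.7 and -38.0 with the control diet. All 4 hippocampus arrays were far above all 5 liver arrays, and the control array was the lowest of the hippocampus. The second, X51468_f_at, read 1520.1, 1581 and 1811 in hippocampus with fungal oil, fish oil and both oils, against 979 with the control diet. Its liver values were 37.9 with fungal oil, -52.4 with fish oil, 139.6 with both oils, and 35.9 and -20.5 with the control diet. The tissues again did not overlap, and the control array was again the lowest.

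The promoter window of Sst is shown because it carries the palindromic cyclic AMP response element TGACGTCA, in capitals, at positions -48 to -41 from the transcription start. The window runs from 250 bases before the start to 50 after it and comes from RefSeq, build GRCm38.p6, minus strand, chr16:23890795-23891094.
Sst: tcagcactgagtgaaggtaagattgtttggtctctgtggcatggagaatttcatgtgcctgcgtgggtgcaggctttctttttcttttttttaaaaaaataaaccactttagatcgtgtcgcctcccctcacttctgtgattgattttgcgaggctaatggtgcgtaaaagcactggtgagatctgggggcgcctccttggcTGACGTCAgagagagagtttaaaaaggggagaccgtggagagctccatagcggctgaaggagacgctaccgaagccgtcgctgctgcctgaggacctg
Of 32851 such windows 1.79% held TGACGTCA, searched on both strands, and among the 7 members with a window Sst alone did. The shorter form TGACG, or its reverse complement CGTCA, which also lies within the palindrome, was in 20.8% of all windows and in those of Sst, Cck, Tac1, Vip and Cort. Npy and Pdyn windows held neither form. A match describes these letters and shows no binding.

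The difference between tissues was fitted with limma over all probe sets, with tissue and diet as terms. A call required a Benjamini-Hochberg adjusted p below 0.05 together with a 2-fold difference, and 6 of 8 tested member probe sets were called higher in hippocampus and 0 lower. Of the 11013 probe sets tested, 23.8% were called higher and 14.4% lower. The called members were all probe sets of Sst, Cck and Penk. Sst was higher in hippocampus by 4.54 on the log2 scale (SE 0.44, n = 4 hippocampus and 5 liver arrays, limma adjusted p = 0.000221), a fold of 23.3. The second Sst probe set gave 5.29 (SE 0.48, limma adjusted p = 0.000172), or 39.2-fold. The liver lay at the floor on 1 array of 5 for the first and 2 of 5 for the second, so the sizes depend partly on the floor. The split of calls across all probe sets was 62.3% higher in hippocampus, but 48.0% after scaling to a common median and 52.8% after quantile normalization. The 6 member calls held under each of these scalings.

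**Figure D1:**
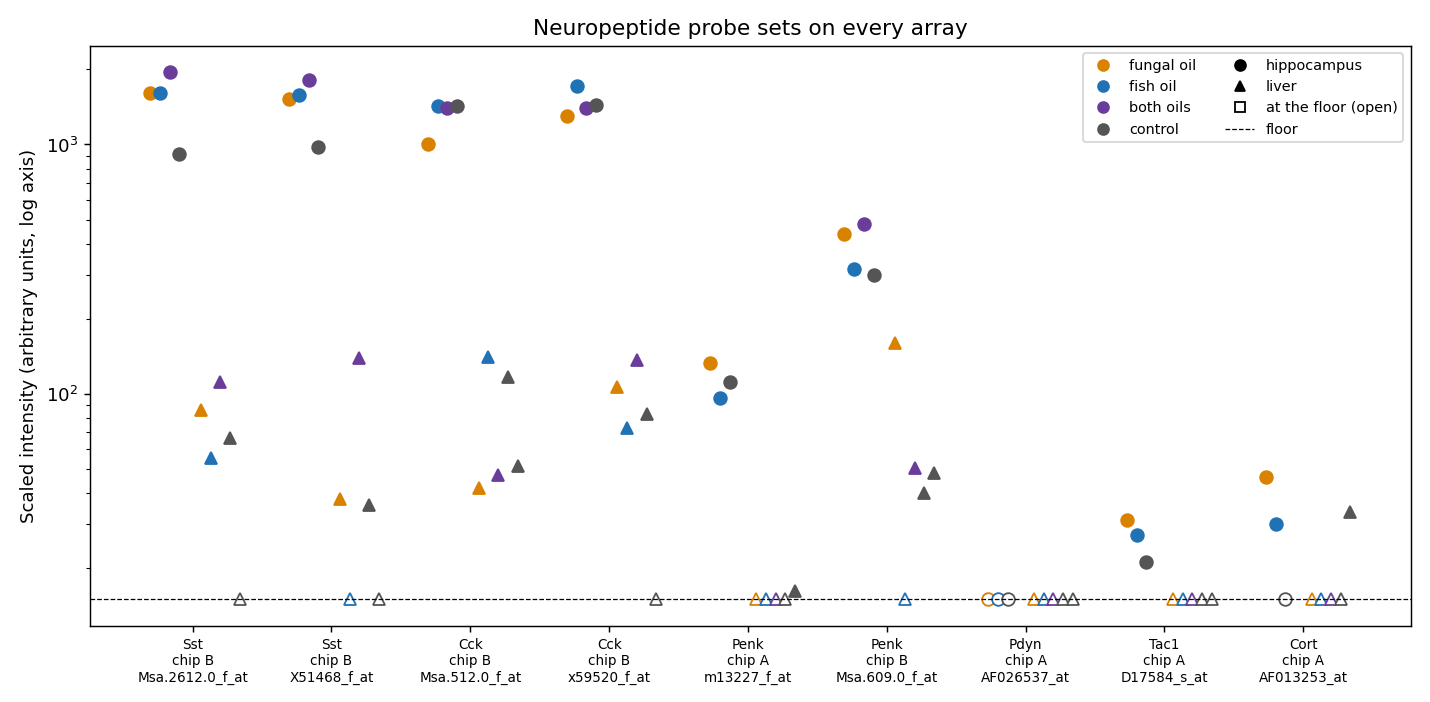
Scaled intensity (log axis) of the 9 neuropeptide probe sets on every array, hippocampus as circles at left and liver as triangles at right in each column, coloured by diet. Open marks lie at or below the floor of 15, drawn as a dashed line. The Sst, Cck and Penk circles lie above all their triangles, and Pdyn is at the floor everywhere.

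Within the hippocampus, the first Sst probe set was 1.76-fold above the control array with fungal oil, 1.75-fold with fish oil and 2.13-fold with both oils. The second gave 1.55-, 1.62- and 1.85-fold in the same order. On the log2 scale the nearest oil array stood 0.81 and 0.64 above the control on these probe sets. The 3 oil arrays among themselves spanned 0.28 and 0.25. The 2 liver control arrays, the only arrays of 1 diet and tissue, differed with an SD of 0.44 in log2 over bright chip B probe sets, those at or above the 75th percentile of their chip. That SD describes liver arrays. No hippocampus diet has a second array, so whether neighbours in the order both oils, single oils, control differ beyond the spread between samples could not be tested.

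Past 2-fold above the control, chip B held 0 of 5 member probe sets with fungal oil, 0 of 5 with fish oil and 1 of 5 with both oils, the first Sst probe set. The share of all chip B probe sets past 2-fold higher was 7.03% with fungal oil, 6.39% with fish oil and 6.15% with both oils. Among bright probe sets these shares were 0.673%, 0.673% and 0.612%. All 3 oil arrays stood at least 1.5-fold above the control for 2 of 5 member probe sets, both of Sst, against 4.08% of 4583 chip B probe sets and 0.856% (14) of the 1635 bright ones. This 1.5-fold limit was chosen after the values were seen, and the Sst probe sets measure 1 gene on the same RNAs. The 3 ratios share 1 control array. Between the 2 liver controls, 11.4% of bright chip B probe sets differed at least 1.5-fold either way.

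The 4 chip B arrays form a 2 by 2 design of the oils, which allowed an additive limma fit with 1 residual degree of freedom. It called 0 of 4583 probe sets for either oil, with 164 (3.58%) for fungal oil and 127 (2.77%) for fish oil at an unadjusted p under 0.05. Sst was higher with than without fungal oil by 0.55 on its first probe set and 0.42 on its second (SE 0.17 and 0.15). The unadjusted limma p was 0.0270 and 0.0452, and neither passed, at a limma adjusted p of 0.999 each. With fish oil the values were 0.54 and 0.47 (SE 0.17 and 0.15). The unadjusted limma p was 0.0282 and 0.0303, and neither passed, at a limma adjusted p of 0.9997 each. With both oils, the log2 ratio to the control differed from the sum of the single oil ratios by -0.54 and -0.44. This departure is the only residual of the additive fit, so its SE and p-values rest on it, moderated over all probe sets. No replicate arrays enter them, and the departure itself has no test. Each additive term averages an oil's difference with and without the other oil.

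**Figure D2:**
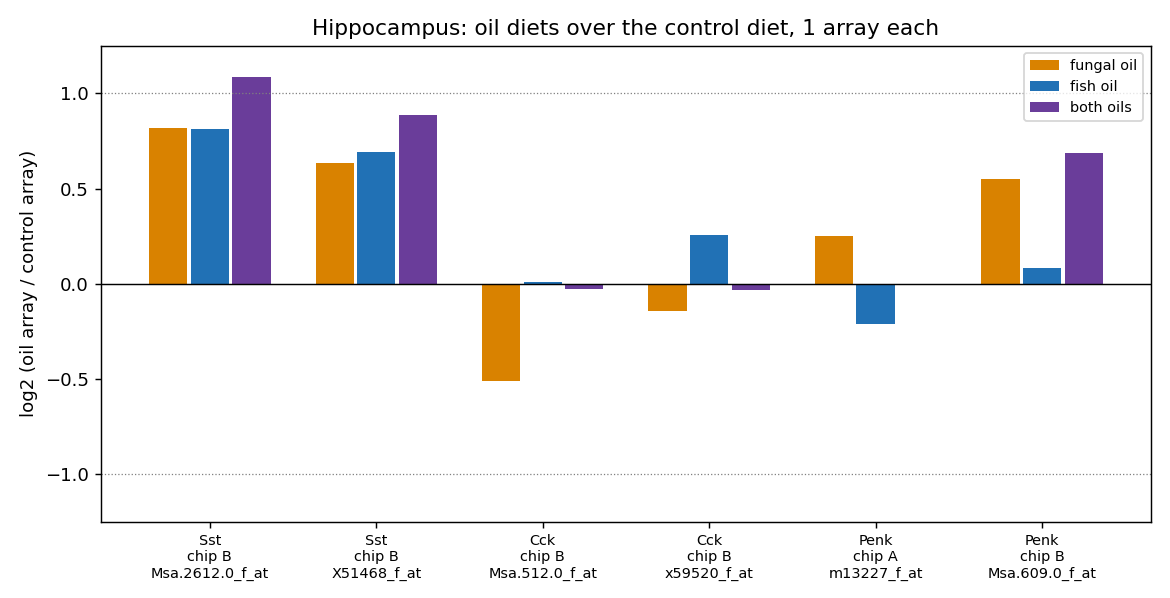
Log2 ratio of each oil array to the control array in hippocampus for the Sst, Cck and Penk probe sets, 1 array per bar, with dotted lines at 2-fold. All 6 Sst bars are positive, from 0.64 to 1.09, the Penk chip B bars are positive for fungal oil and both oils (0.55 and 0.69), and the Cck bars lie between -0.51 and 0.25.

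Other inhibitory neuron genes gave the setting for Sst on the same arrays. Gad1, which makes GABA, read 1928, 1908 and 1854 with fungal oil, fish oil and both oils, against 1852 with the control diet. Pvalb, a calcium buffer of fast-spiking interneurons, read 395, 465 and 445 in that order, against 422 in the control. Both genes were nearly level over the diets. Calb2, the calcium buffer calretinin, read 884, 731 and 790 with the oils, against 652 in the control, and Nos1, the neuronal nitric oxide synthase, read 252, 202 and 197 against 145. These were lowest in the control, as Sst was. Summed over the 5 inhibitory neuron genes of chip B, the oil arrays read 3475, 3321 and 3301, against 3087 in the control. On chip A the sum of the other 9 genes was 1124 with fungal oil and 1044 with fish oil, against 1069 in the control. In a tissue sample, fewer cells of a type and less RNA per cell cannot be told apart.

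Markers of other cell types and regions were read on the same arrays, with no test. Camk2a, the calcium-dependent kinase of excitatory neurons, was dim on chip B. It read 41.3, 6.06 and 19.2 with fungal oil, fish oil and both oils, against 101 in the control. The fish oil value lay below the floor, and the value with both oils was close to it. Camk2a was not called between tissues (limma adjusted p = 0.0595), and the related Camk2b read 2233 to 2669 on the same hippocampus arrays. The other excitatory markers of chip B, Camk2b, Gria1 and Gria2, had log2 ratios between -0.35 and 0.07. The sum of the 4 excitatory markers on chip B was 6592, 6389 and 5551 with fungal oil, fish oil and both oils, against 6605 in the control. On chip A the sum of 3 others was 1017 with fungal oil and 1283 with fish oil, against 1274 in the control.

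The thalamus and hypothalamus list had 4 measured genes of 10, of which Avp and Oxt lay at the floor. Prkcd, a kinase strong in thalamus, read 299, 357 and 265 with fungal oil, fish oil and both oils, against 466 in the control on chip B. Nefh, a neurofilament of large axons, read 209.8 and 194 with fungal and fish oil, against 291 in the control on chip A. These 2 genes were highest in the control. The chip A sum of the list was 239.9 and 224 with fungal and fish oil, against 321 in the control. With Avp and Oxt at the floor, this sum varies through Nefh alone and adds nothing to it. Drd2, a dopamine receptor and the only measured striatum marker of 7, read 211, 168 and 163 with fungal oil, fish oil and both oils, against 194 in the control. Its liver arrays read 156 to 211, the same range, and it was not called between tissues (limma adjusted p = 0.969). Its hippocampus readings thus cannot be taken as a measure of striatum.

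Astrocyte markers summed to 756 with fungal oil and 730.4 with fish oil, against 994 in the control on chip A. On chip B they summed to 554, 522 and 462 with fungal oil, fish oil and both oils, against 561 in the control. The water channel Aqp4 differed between its probe sets, with log2 ratios of -0.63 and -0.88 with fungal and fish oil on chip A but -0.20 and -0.16 on chip B, where both oils gave -0.03. Choroid plexus markers summed to 753 with fungal oil and 292 with fish oil, against 466 in the control on chip A, and Folr1 among them read 39.2, -23.1 and -37.2 in that order. Microglia markers summed to 710, 704 and 661 with fungal oil, fish oil and both oils, against 701 in the control on chip B. The sum hides opposite members: with both oils the log2 ratio was 0.48 for C1qb, -0.47 for C1qa and -0.63 for Csf1r. A dimmer chip B probe set of C1qb read 29.2, -20.2 and 24.2 with the oils in that order, against 75.7 in the control. Oligodendrocyte markers summed to 1430 and 1586 with fungal and fish oil, against 1421 in the control on chip A. Mbp, their chip B gene, read 270, 284 and 297 with the oils, against 264. Endothelial markers summed to 135.5 and 136.5 with fungal and fish oil, against 150.5 in the control on chip A. The part of any of these cell type and region markers in the Sst ratios was not tested.

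**Figure D3:**
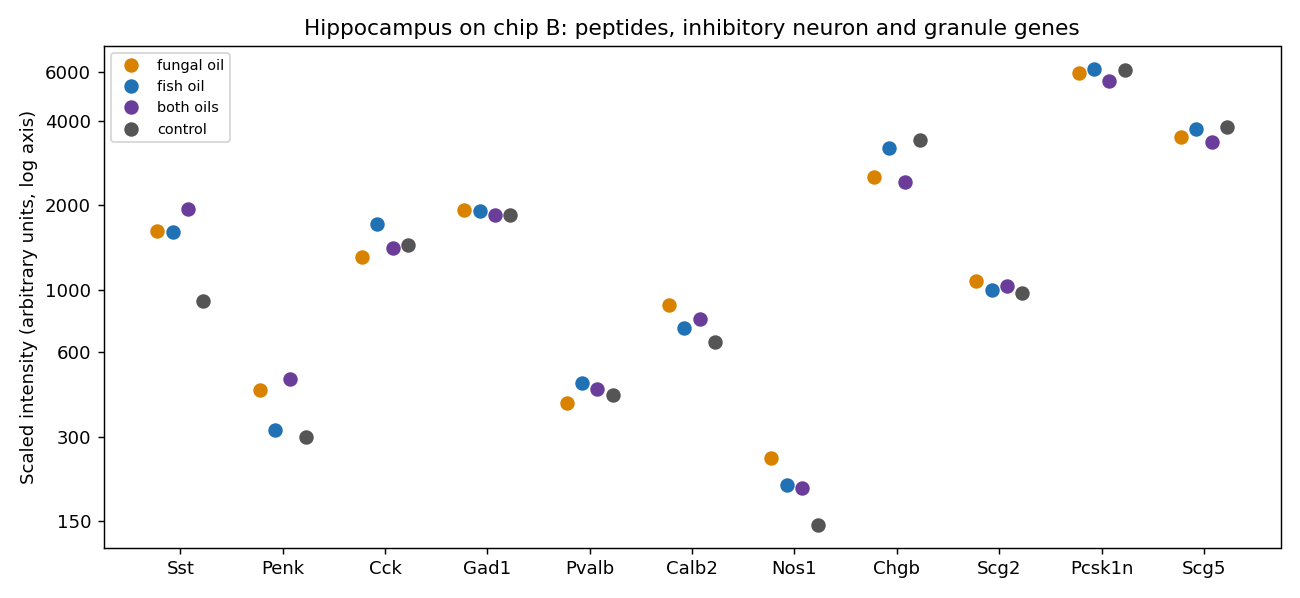
Scaled intensity (log axis) of the brightest chip B probe set of neuropeptide, inhibitory neuron and granule genes in hippocampus, 1 array per diet. Sst reads 1607 to 1948 with the oils against 916 in the control, while Gad1 stays between 1852 and 1928 on all 4 arrays.

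Of bright chip B probe sets of other genes with 1 symbol, 630 in all, those nearest to Sst in pattern over the 4 hippocampus arrays were Actc1, Babam1 and Ndufa12. The distances, in log2 values around each gene's own mean, were 0.20, 0.27 and 0.32. Actc1, cardiac alpha actin, read 702, 752 and 754 with fungal oil, fish oil and both oils, against 405 in the control. Its probe set also has the suffix _f_at, so these readings may include related sequences. Babam1 read 334, 267 and 383 against 194, and Ndufa12, a respiratory complex I gene, read 520.2, 567 and 537 against 336. All 3 were lowest in the control array, which follows from choosing them by their likeness to Sst.

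Cholecystokinin, a peptide of basket cell interneurons and of many pyramidal cells, was also measured by a pair of chip B probe sets. The first, whose name starts with Msa, read 999.99 with fungal oil, 1432 with fish oil and 1396 with both oils, against 1423 with the control diet in hippocampus. Its liver values were 42.0, 141 and 47.2 with fungal oil, fish oil and both oils, and 117 and 51.3 with the control diet. The tissues were far apart, and the fungal oil array was the lowest in hippocampus. The second probe set, x59520_f_at, read 1305, 1718 and 1406 with the oils in that order, against 1440.3 in the control. In liver it read 107, 72.9 and 136 with the oils, and 83.1 and -25.6 with the control diet. Fungal oil was again lowest in hippocampus, and fish oil was highest.

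The Cck promoter window is shown for contrast with Sst: it holds the short form CGTCA, in capitals, at -47 to -43, and not the palindrome. The window is from RefSeq, build GRCm38.p6, minus strand, chr9:121495645-121495944.
Cck: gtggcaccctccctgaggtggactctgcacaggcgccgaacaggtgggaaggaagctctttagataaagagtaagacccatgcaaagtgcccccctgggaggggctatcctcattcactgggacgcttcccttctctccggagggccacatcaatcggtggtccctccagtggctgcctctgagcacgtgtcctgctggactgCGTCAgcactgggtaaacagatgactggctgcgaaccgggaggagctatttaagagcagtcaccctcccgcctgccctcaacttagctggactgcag
The short form is common, as given above, and its presence is a description only.

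Cck was higher in hippocampus than in liver by 4.25 and 4.31 on the log2 scale (SE 0.33 and 0.57, n = 4 and 5 arrays, limma adjusted p = 0.0000827 and 0.000963), or 19.0- and 19.8-fold. Its oil ratios to the control were -0.51 and -0.14 in log2 with fungal oil, 0.01 and 0.25 with fish oil, and -0.03 on each probe set with both oils. Of the members with 2 probe sets, Cck showed the largest disagreement within an oil, 0.37 between its fungal oil values. In the additive limma fit the fungal oil terms were -0.27 and -0.22 (SE 0.16 and 0.11), and the fish oil terms 0.25 and 0.18, none called. The nearest patterns were those of Tuba3a, whose probe set also has the suffix _f_at, Nap1l1 and Cbln1, at log2 distances of 0.05, 0.07 and 0.08. Each of the 3 was lowest with fungal oil and highest with fish oil, which follows from choosing them by likeness to the second Cck probe set.

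Proenkephalin (Penk), the precursor of the enkephalin opioids, had 1 probe set on each chip. On chip B, the probe set whose name starts with Msa read 439 with fungal oil, 316 with fish oil and 481 with both oils in hippocampus, against 299 with the control diet. In liver it read 159.9, -5.13 and 50.3 with the oils, and 40.0 and 48.2 with the control diet. The tissues did not overlap, and both arrays with fungal oil in the diet lay above the other two in hippocampus. On chip A, m13227_f_at read 133 with fungal oil and 96.5 with fish oil, against 112 with the control diet. Liver values on chip A were -7.09, -11.2 and -4.05 with the oils, and 2.02 and 16.2 with the control diet, at the floor on 4 of 5 arrays.

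Penk was higher in hippocampus by 2.95 on chip B (SE 0.43, limma adjusted p = 0.00142) and by 2.88 on chip A (SE 0.18, limma adjusted p = 0.000187), or 7.75- and 7.38-fold. With 4 of 5 liver arrays at the floor, the chip A value depends on it: it was 1.58 with a floor 2.5 times as high and was still called. Its oil ratios on chip B were 0.55 with fungal oil, 0.08 with fish oil and 0.69 with both oils. On chip A they were 0.25 and -0.21 with fungal and fish oil. The difference between the fungal and fish oil arrays was 0.47 on chip B and 0.46 on chip A, from the same 2 RNAs. The additive fungal oil term for Penk was 0.58 (SE 0.14, unadjusted p = 0.0107), and it was not called, at a limma adjusted p of 0.999. The fish oil term was 0.11. The nearest patterns were those of Prcc, the receptor kinase Ddr2 and the potassium channel Kcna3, at log2 distances of 0.15, 0.18 and 0.18.

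The remaining members were dim. Tac1, the precursor of substance P, read 31.1 with fungal oil and 27.1 with fish oil, against 21.1 with the control diet in hippocampus. In liver it read -7.09, -5.08 and -10.1 with the oils, and 1.01 and -1.01 with the control diet, at the floor on all 5 arrays. By the plain means of log2 values, hippocampus was at least 1.74-fold higher. The limma fit with the diet term gave 0.77 in log2, or 1.70-fold (SE 0.14, limma adjusted p = 0.00813). That stayed under the 2-fold limit and was not called. With a floor 0.5 times as high the difference became 1.77 in log2 and was called (limma adjusted p = 0.00152, n = 3 and 5). The hippocampus ratios to the control were 0.56 and 0.36 in log2 with fungal and fish oil. Over 3 arrays, the nearest patterns among bright chip A genes were those of Ythdc1, Fabp3 and Timd2, at log2 distances of 0.02, 0.05 and 0.06.

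Cort, the precursor of the somatostatin-like peptide cortistatin, read 46.2 with fungal oil and 30.1 with fish oil, against -20.1 with the control diet in hippocampus. In liver it read -4.05, -23.4 and -1.01 with the oils, and 9.11 and 33.4 with the control diet. The tissues overlapped, and the difference of 0.56 in log2 (SE 0.53, limma adjusted p = 0.427) was not called. Against the control at the floor, the oil arrays were at least 3.08-fold higher with fungal oil and at least 2.01-fold higher with fish oil. On chip A 1 of 3 member probe sets was thus past 2-fold with each oil, where 5.04% of all probe sets were with fungal oil and 3.99% with fish oil. The higher of the 2 liver control arrays read above the fish oil hippocampus array. Pdyn, the dynorphin precursor, read -49.2 with fungal oil, -95.4 with fish oil and -107 with the control diet in hippocampus. Its liver values lay between -158 and -80.0. It was at the floor on all 8 arrays and was not tested.

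Genes that store, process and receive these peptides were set beside all genes with 1 symbol. Each gene was counted by its probe set brightest in hippocampus. For genes with several probe sets, that choice favours a higher hippocampus value. Over all 5496 genes tested, 1365 were higher in hippocampus and 863 lower, with a median log2 difference of 0.18. Of other neuropeptides and granule proteins 6 of 19 tested were higher and 0 lower, with a median of 0.50. The brightest was Chgb, a granin of dense core granules, which was 7.47 higher (SE 0.21, limma adjusted p = 0.00000098). Scg3, Scg2 and Chga, other granins, were higher by 5.62, 4.80 and 3.52, and Nxph1 and Nppc by 1.96 and 1.61. Chgb read 2526, 3192 and 2425 with fungal oil, fish oil and both oils, against 3430.0 in the control hippocampus, so it was highest where Sst was lowest. Scg2 was nearly level, at 1076, 999 and 1030.4 with the oils against 978 in the control. By the brightest probe set of each gene, 3 dim genes of this list were past 2-fold from the control. Gnrh1, the gonadotropin-releasing hormone gene, read 69.6, 74.8 and 9.08 with fungal oil, fish oil and both oils, against 20.2 in the control. Nppb, a natriuretic peptide gene, read 28.1 and 62.3 with fungal and fish oil, against 27.1. Ppy, pancreatic polypeptide, read 52.2 and 79.4, against 145. A dimmer probe set of Gast, the gastrin gene, read 77.8 with fish oil against 27.3 in the control, a log2 ratio of 1.51. Over all 5030 genes with a ratio, 285 were past 2-fold higher and 198 lower with fungal oil. With fish oil 220 were higher and 218 lower.

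Of 15 tested processing genes 4 were higher and 3 lower in hippocampus, with a median of -0.41. Over all 5496 genes tested, 1365 were higher and 863 lower, with a median of 0.18. Cpe, which trims basic residues from peptides, was higher by 7.60 on chip A, but its chip B probe set gave -0.20 and was not called. Scg5 and Pcsk1n, partners of the convertases, were higher by 7.50 and 4.90, and the amidating enzyme Pam by 2.26. The proteases Ctsl, Furin and Ece1, active in many tissues, were lower by values of -2.92, -1.76 and -1.09. In hippocampus Pcsk1n read 5906, 6140.3 and 5539 with the oils against 6097 in the control, and Scg5 read 3497, 3741 and 3363 against 3798. Past 2-fold from the control, Cpd was higher and Pcsk1 lower with each single oil, at intensities of 102 or less in hippocampus.

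Of 11 tested receptor genes 2 were higher and 1 lower, with a median of 0.27. The background for this list and those that follow is 1365 higher and 863 lower of all 5496 genes tested, with a median of 0.18. Npy2r, a receptor of neuropeptide Y, was higher by 3.16 and Oprl1, the nociceptin receptor, by 1.58, while Tacr2, a tachykinin receptor, was lower by a value of -1.96. The somatostatin receptors Sstr1, Sstr3 and Sstr4 were not called and were at the floor on at least 3 of 4 hippocampus arrays. Past 2-fold above the control, by the brightest probe set of each gene, were Tacr2 and Npy1r with fungal oil, Tacr2 and the opioid receptor Oprk1 with fish oil, and Sstr1 and Sstr4 with both oils. The control was at the floor for each of them but Oprk1, which read 44.4, 115 and 75.7 with fungal oil, fish oil and both oils, against 50.5 in the control. Of 13 inhibitory neuron genes 7 were higher and 0 lower, with a median of 1.68, led by Gad1 at 6.97 and Calb1 at 4.38. Htr3a, a serotonin receptor of interneurons, was the only one past 2-fold from the control by its brightest probe set, at 63.3 with fungal oil and 46.2 with fish oil, against 14.1 in the control. The dimmest of the 3 Pvalb probe sets read 89.8 with both oils against -150.5 in the control, and its other 2 were nearly level. Of 13 CREB and activity genes 5 were higher, among them Jun at 3.46, Bdnf at 2.74 and Egr1 at 2.58. By its brightest probe set, 0 of 11 activity genes with a ratio stood 2-fold from the control with fungal oil or fish oil, and 0 of 5 with both oils. A second, dimmer probe set of Creb1, a gene of CREB itself, read 32.3 with both oils against 15.2 in the control, a log2 ratio of 1.09. Bdnf, a growth factor induced by activity, read 174, 162 and 129 with fungal oil, fish oil and both oils, against 199 in the control.

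**Figure D4:**
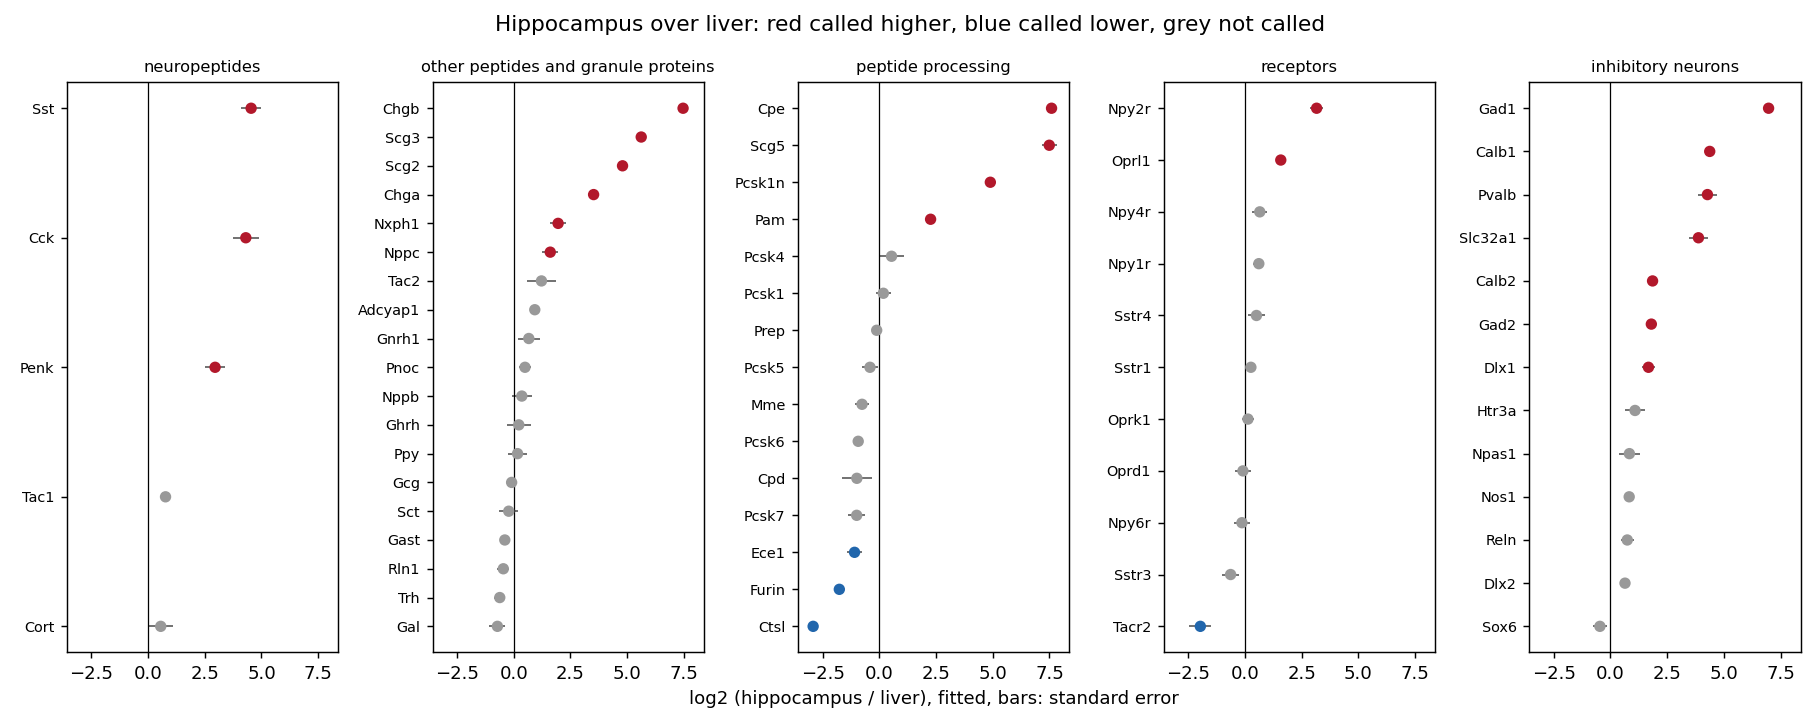
Fitted log2 difference of hippocampus over liver for the tested genes of 5 lists, with standard errors as bars. Each gene has 1 probe set, the brightest in hippocampus, a choice that favours a higher hippocampus value. Red genes were called higher, blue lower and grey not called, and Sst and Cck stand above 4 and Tac1 and Cort below 1.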

How the data were processed

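RNA of hippocampus and liver was measured on 2 oligonucleotide array types. The authors deposited 1 background-subtracted intensity per probe set and array, including negative values. The software that made them is not given in the sources used here. Groups came from the array labels. Each array was scaled to a 2% trimmed mean of 150, values below 15 were set to 15, and log2 was taken. The 55 control probe sets per chip and the 2056 probe sets at the floor on every array were left out. Names came from the platform annotation, where 5541 chip A and 2001 chip B probe sets have 1 symbol, 197 and 27 several, and 791 and 4512 none. Updating changed 0 symbols.

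Tissues were compared with limma 3.58.1 in R 4.3.3 (lmFit, eBayes with intensity trend, tissue and diet, per chip), with Benjamini-Hochberg adjustment over both chips. Hippocampus oil ratios have no test. Arrays of different diets came from different mice. The labels do not say whether RNA was pooled, or whether arrays of the same diet share animals. The tissue p-values thus cover the spread between arrays, which may be technical. Those of the additive fit rest on the departure of the oils from additivity, without replicates. The number of arrays limits the precision. The fits were tested on simulated data. Figures used Python 3.11.15 and matplotlib 3.10.9.

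Named genes were all members, examples of the lists (the brightest and those past 2-fold), and the 3 genes nearest each member in pattern over the hippocampus arrays. The members and lists were chosen with earlier results of these data known. In list and marker counts, a gene with several probe sets was represented by the one brightest in hippocampus. Alternatives were other scalings and floors, filters on dim probe sets, no trend, no diet term, RNAs left out, and the other arrays' mean as comparator.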

Additional observations from a re-analysis of the deposited data

How the results depend on the processing

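The 6 member calls of Sst, Cck and Penk between tissues held under each of the 18 alternatives that tested them, with log2 differences of 4.14 to 4.79 and 4.78 to 5.77 for Sst. The counts over all probe sets were 892 higher and 840 lower when the test kept only those whose mean reached the 75th percentile, against 2623 and 1590, because fewer were tested. Leaving out each of the 9 RNAs in turn, from every chip it was on, gave 2262 to 2593 higher and 1422 to 1569 lower, where leaving out the liver oil RNAs was added after seeing the data. Scaling to a common median gave 1992 higher and 2157 lower, and it moved the median tissue difference to -0.12 from 0.12.

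Sst in hippocampus, as the mean of its probe sets, was 0.73, 0.75 and 0.99 above the control in log2 with fungal oil, fish oil and both oils. Set against the mean of the other hippocampus arrays instead, it was 0.15, 0.18 and 0.50. That mean includes the other oil arrays, so a smaller value follows wherever all oil arrays lie above the control. It cannot show how far the size rests on the single control array, which all the ratios share. Scaling to a common median shifted the median ratio of bright chip B probe sets by -0.16 with fungal oil and -0.13 with both oils, and Sst then stood at 0.56 and 0.86. The Cort ratio with fungal oil was 2.62 with the lower floor and 0.30 with the higher one. The additive fit called 0 probe sets under its 6 alternatives. Signal near the floor limits Tac1, Cort and Pdyn. The labels give no replicate number that pairs samples. Tissues were matched through the diet term, and without it 2691 probe sets were higher and 1619 lower.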
